A study of Mus musculus with 4 samples.

Results

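The genes described here are 37 markers of nonparenchymal liver cells, the liver's cells other than hepatocytes. They fall into 4 cell types: 10 markers of Kupffer cells, 10 of endothelial cells, 10 of stellate cells and 7 of bile duct cells. They were chosen by name from a list, and all 37 were found among 21887 protein-coding genes of RefSeq on mouse assembly GRCm38.p6. The measurement was chromatin immunoprecipitation with sequencing (ChIP-seq) on whole livers of C57BL6/J mice. Of 4 libraries, 2 came from livers that overexpressed the transcription factor MafG with a BLRP peptide tag (treatment labelled Ad BLRP MAFG). The other 2 came from control livers (labelled Ad BLRP Control). All 4 were precipitated with the same Avi-tag antibody. Which liver cells carried the construct, like the age and sex of the mice, was not given in the sources used here. Tagged MafG was overexpressed, so sites that native MafG does not occupy may be among the peaks.

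Kupffer cells are the resident macrophages of the liver and clear particles, dying cells and complement-coated microbes from the blood. Sinusoidal endothelial cells line the liver's capillaries and take up waste molecules through scavenger receptors. Stellate cells store vitamin A and, once activated, make collagen, while bile duct cells line the ducts and add water and ions to bile. MafG is a small MAF protein that binds DNA as a dimer, and the MAF recognition element is a palindrome whose arms read TGCTGA.

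Values come from 1 deposited list of 68763 peaks, called on 1 collection of BLRP-MafG tags over 1 collection of control tags. The height of a peak is its normalized tag count, the BLRP-MafG tags in 200 bp scaled to a total of 10000000. There is no value per library, so no spread between animals can be given and no difference was tested. Intervals of tag counts and ratios are exact 95% intervals of tag counting alone. Those of shares of genes are exact 95% binomial intervals, which treat the listed genes as independent draws. A peak belonged to a gene when its midpoint lay inside the gene or within 10 kb of either end. ChIP-seq of whole liver does not show from which cells the tags came, so a peak at a marker gene may lie in hepatocyte chromatin. Gene expression was not measured in these libraries, so the cell type of each marker could not be checked against the data.

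Of the 37 markers, 27 (73%, interval 55.9% to 86.2%) had a peak, against 74.5% of all protein-coding genes, a share close to this background. The 3 genes of the C1q cluster lie next to each other and share peaks. Counted as 1 locus, 25 of 35 loci (71.4%) had a peak. A peak inside the gene was found for 16 markers (43.2%), against 50.5% of all genes. A peak within 1 kb of a gene end was found for 8 markers (21.6%), against 24.5% of all genes. The median over markers of the highest normalized tag count, with genes lacking a peak at 0, was 19.1, against 13.7 over all genes. This order did not hold with other windows: the medians were 7.84 and 7.84 with 1 kb, and 32.3 and 33.8 with 50 kb. A highest tag count of 50 or more, a round value chosen after the data were seen, was reached by 9 markers (24.3%) and by 17.1% of all genes. These 9 were Vwf, Cdh5, Sox9, C1qa, C1qb, C1qc, Col1a1, Reln and Stab1, and with the C1q genes as 1 locus they made up 7 loci.

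Across the 4 cell types, the markers with a peak ran from 4 of 7 to 10 of 10. All 10 endothelial markers had one (interval 69.2% to 100%), as did 7 of 10 stellate markers (34.8% to 93.3%). Among Kupffer markers the count was 6 of 10 (26.2% to 87.8%), and among bile duct markers 4 of 7 (18.4% to 90.1%). Of all protein-coding genes, 74.5% had a peak. Genes are not replicates of a cell type, so no comparison rests on these intervals. The median highest tag count was 35.5 for endothelial, 23.5 for Kupffer, 13.8 for stellate and 6.86 for bile duct markers. Over all protein-coding genes it was 13.7. With the C1q genes as 1 locus, 4 of 8 Kupffer loci had a peak, and the median over the 8 was 2.94. With each peak given only to its nearest gene, the endothelial median was 23.2 and the Kupffer median 8.84, against 10.3 over all genes. The order of the cell types changed with the window. With 50 kb the Kupffer median, 84.8, stood above the endothelial one, 43.8. The 84.8 equals the height of the highest C1q peak, which counts for C1qa, C1qb and C1qc alike. The 50 kb window was not run with the C1q genes as 1 locus. With 1 kb the Kupffer, stellate and bile duct medians were all 0. These differences between the 4 cell types were not tested.

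**Figure D1:**
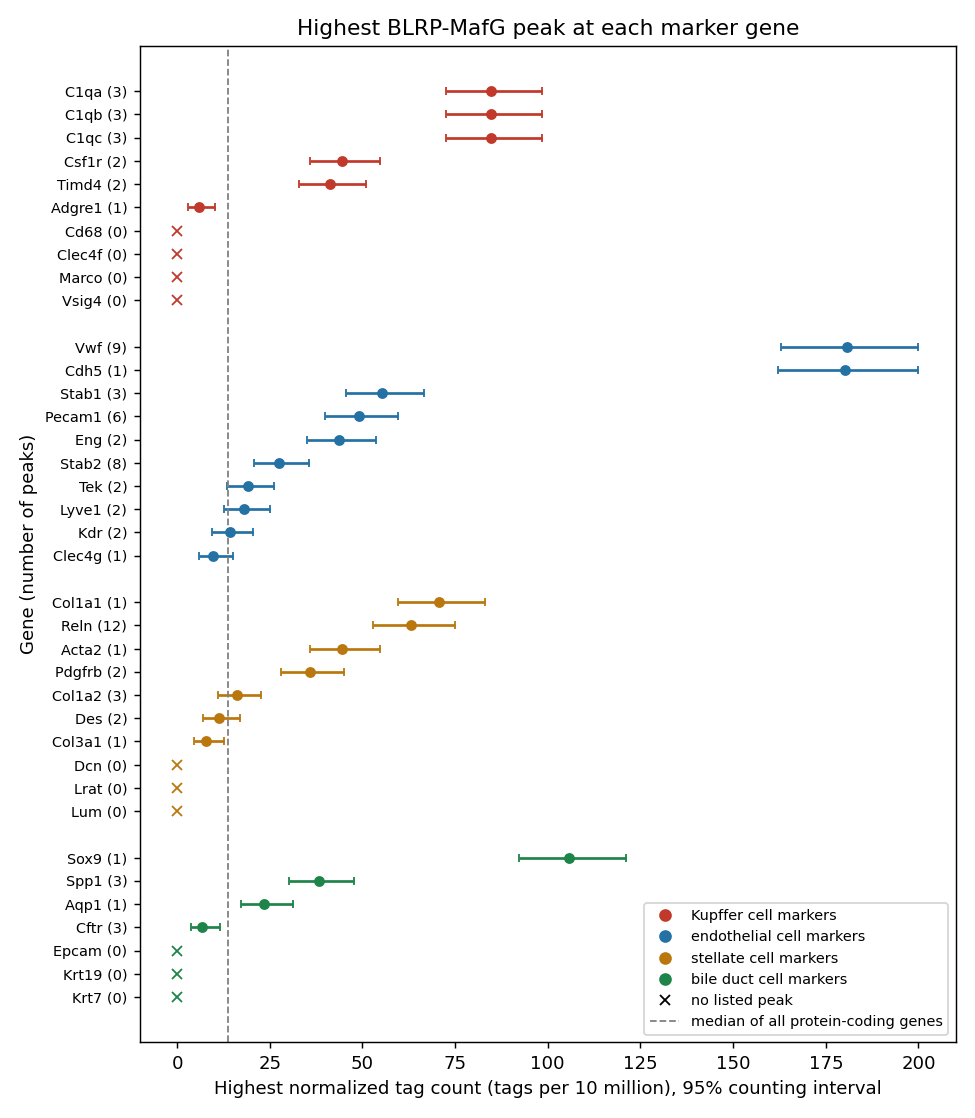
The highest normalized tag count at each of the 37 markers (horizontal axis, linear, with exact 95% counting intervals), by cell type, with the number of peaks after each name. Crosses are the 10 genes without a listed peak. The dashed line is the median of all protein-coding genes, 13.7. Vwf and Cdh5 stand highest, at 180.8 and 180.3.

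Peaks overlapped the promoters of 3 markers, C1qb, C1qc and Tek, and their sequences are printed here because the DNA under these peaks could be read. RefSeq promoter windows on GRCm38.p6 (250 bases before to 50 bases after the start site) matched 24 of the 37 markers. The 3 with a peak are 12.5% of these 24, close to the 12.9% of all 17492 protein-coding genes with a window. Each line gives the 250 bases before the start site, 5′ to 3′ on the strand of the gene. Capitals mark matches, on either strand, to TGCTGA (an arm of the MAF recognition element), TGANTCA (the AP-1 core) and TGACNNNGC (the core of the antioxidant response element).

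C1qb, chr4:136886201-136886450, minus strand: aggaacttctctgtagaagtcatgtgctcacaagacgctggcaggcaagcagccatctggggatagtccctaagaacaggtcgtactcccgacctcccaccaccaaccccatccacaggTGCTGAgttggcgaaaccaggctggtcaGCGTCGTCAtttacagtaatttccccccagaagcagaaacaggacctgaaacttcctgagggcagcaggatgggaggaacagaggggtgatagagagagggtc

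C1qc, chr4:136892915-136893164, minus strand: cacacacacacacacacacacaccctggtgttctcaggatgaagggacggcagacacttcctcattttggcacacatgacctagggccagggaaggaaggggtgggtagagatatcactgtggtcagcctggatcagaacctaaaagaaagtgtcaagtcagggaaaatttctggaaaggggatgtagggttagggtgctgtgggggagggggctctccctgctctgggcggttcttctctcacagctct

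Tek, chr4:94739039-94739288, plus strand: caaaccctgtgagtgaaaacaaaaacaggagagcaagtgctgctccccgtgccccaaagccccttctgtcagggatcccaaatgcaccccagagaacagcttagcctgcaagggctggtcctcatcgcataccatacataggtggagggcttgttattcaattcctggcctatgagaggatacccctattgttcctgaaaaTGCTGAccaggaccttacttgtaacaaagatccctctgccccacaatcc

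In the C1qb promoter the first capitals are a TGCTGA match and the second a match to TGACNNNGC on the opposite strand, with centres 11.5 bp and 18 bp from the midpoint of the peak. The Tek promoter holds a TGCTGA match centred 10.5 bp from the midpoint of its peak. None of the 3 motifs was found in the C1qc stretch, which says only that these letters are not in it. The motifs can overlap one another, but the matches shown do not. Over all 21263 promoter windows of protein-coding genes, 18.1% held TGCTGA, 6.99% TGANTCA and 13% TGACNNNGC. Among the 2432 windows that overlapped a peak, the shares were 22.4%, 6.09% and 18.3%. Of the 25 windows of markers (Spp1 has 2), 8 held TGCTGA, 1 held TGANTCA and 4 held TGACNNNGC, and all but the C1qb and Tek windows among them had no peak. A match is a description of the sequence and not a measured site.

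The tallest peaks at Kupffer markers lay at the C1q genes. C1qa, C1qb and C1qc encode the chains of C1q, which recognises targets for the classical complement pathway. The highest peak, with a normalized tag count of 84.8 (72.6 to 98.4), was centred 95 bp before the start site of C1qc at chr4:136892909-136893109. It held 173 tags against 1 control tag. The ratio to control, scaled for depth, was 146 (25.8 to 5797) as counted and 48.6 with the control set to a floor of 3 tags. This floor is a fixed value and not a limit computed from the count. The other, of 73.5 (62.2 to 86.3), was centred 117 bp before the start site of C1qb at chr4:136886217-136886417, with 3 control tags and a ratio of 42.2 (14.2 to 207). The intervals of these tag counts overlapped. The closest listed peak to C1qa was that of C1qc, 2907 bp from its end. Lower peaks of 9.31 and 11.8 flanked the cluster, the first 175 bp beyond the far end of C1qb and the second 7531 bp from C1qa. Besides the C1q genes, no protein-coding gene lay within 10 kb of these 4 peaks.

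**Figure D2:**
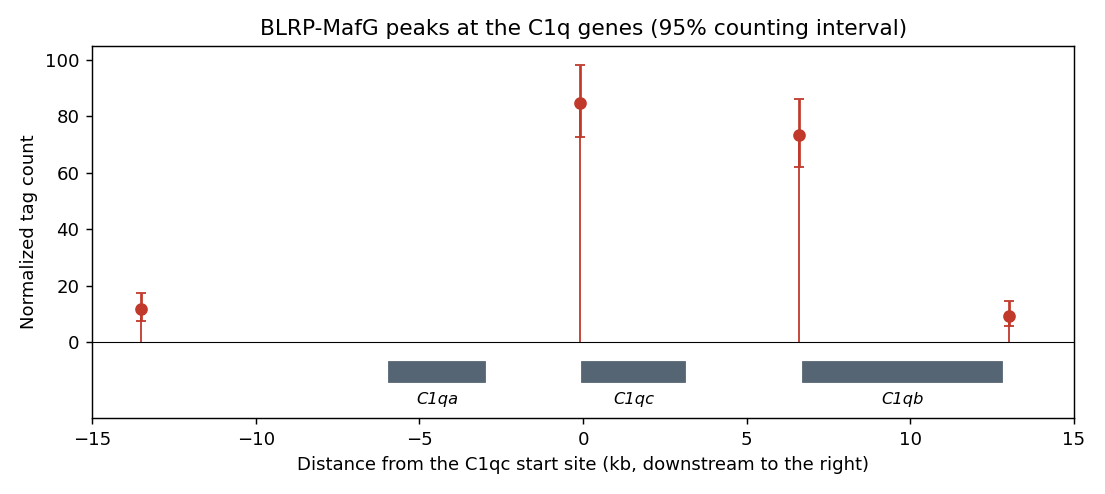
Normalized tag count (vertical axis, linear, with exact 95% counting intervals) of the 4 peaks at the C1q genes, by distance in kb from the start site of C1qc. Grey boxes are the genes. The peaks of 84.8 and 73.5 stand at the start sites of C1qc and C1qb, and the other 2 stay at 11.8 or lower.

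Surface receptors of Kupffer cells varied from 2 peaks to none. Csf1r, the receptor of the macrophage growth factor CSF1, held 2 peaks inside the gene. The higher, of 44.6 (35.9 to 54.8), lay 3215 bp from one end at chr18:61108687-61108887, with 3 control tags and a ratio of 25.6 (8.48 to 126). The lower was 19.1 (13.6 to 26.1). Timd4, which encodes the phosphatidylserine receptor TIM-4, held a peak of 41.2 (32.8 to 51) centred 7100 bp after its start site at chr11:46817799-46817999. The control held 1 tag there, for a ratio of 70.9 (12.4 to 2832) as counted and 23.6 with the floor. A second peak inside Timd4 was 6.37 (3.39 to 10.9). Adgre1, the gene of the classical macrophage marker F4/80, is 125 kb long but had a single low peak of 5.88 (3.04 to 10.3), 6837 bp outside it. Of all protein-coding genes, 73.8% had a highest peak at least this tall.

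The remaining 4 Kupffer markers had no listed peak. For Cd68, a lysosomal glycoprotein gene, the nearest was one of 14.2 (9.52 to 20.4) at 15861 bp. The nearest to Marco, a scavenger receptor gene, was 13.2 (8.72 to 19.3) at 17157 bp, and to the lectin gene Clec4f 13.2 (8.72 to 19.3) at 21972 bp. Vsig4, the complement receptor gene CRIg and the only marker on the X chromosome, had its nearest peak, of 9.8, at 67863 bp. Absence from the list leaves room for weaker signal, since a listed peak had to reach 10 times the control and 4 times its surroundings.

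Endothelial markers held the tallest peaks of the 37 genes. Cdh5, which encodes the junction protein VE-cadherin, had a single peak of 180.3 (162 to 200), 653 bp outside its lower-coordinate end at chr8:104100860-104101060. It held 368 tags against 3 control tags, a ratio of 103 (35.1 to 504), and 2.85% of protein-coding genes had a peak at least this tall. Vwf, the gene of von Willebrand factor, a clotting protein released by endothelium, held 9 peaks, all inside the gene and over 10 kb from its ends. The tallest, of 180.8 (163 to 200) at chr6:125663493-125663693, lay 23086 bp from the nearer end. The control held 0 tags there, and with the floor the ratio was 104 (exact lower limit 84). A second reached 109.8 (95.9 to 125) at chr6:125671946-125672146, with 2 control tags and a ratio of 94.5 (25.9 to 785) as counted and 63 with the floor. The other 7 ranged from 5.88 to 24. The highest peaks of Cdh5 and Vwf did not differ beyond counting error.

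The highest peaks of Stab1, Stab2, Pecam1, Lyve1 and Clec4g ran from 9.8 to 55.4. Stab1 and Stab2 encode the stabilins, scavenger receptors that take up waste molecules. Stab1 had a peak of 55.4 (45.6 to 66.6) at chr14:31130447-31130647. The control held 0 tags, and with the floor the ratio was 31.8 (exact lower limit 25.4). This peak lay 8470 bp outside Stab1 and 542 bp from another gene, Nt5dc2, and the next, of 33.3, was likewise closer to other genes. The one peak inside Stab1 was 12.3 (7.93 to 18.1). Stab2 held 8 peaks inside its 167 kb, from 7.35 to 27.4, none of them within 10 kb of its ends. Pecam1, the gene of the adhesion molecule CD31, had 6 peaks, of which 4 lay inside it. They ran from 7.84 to 49 (39.9 to 59.6), and one of 37.2 (29.3 to 46.6) lay 1486 bp outside an end. Lyve1, a hyaluronan receptor gene, had a peak of 18.1 (12.8 to 25) 118 bp outside one end. Clec4g, the gene of the sinusoidal lectin LSECtin, held one of 9.8 (5.99 to 15.1).

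Among growth factor receptor genes of endothelium, Eng had taller peaks than Tek and Kdr. Eng encodes endoglin, a co-receptor of the TGF-beta family. It had a peak of 42.6 (34.1 to 52.6) centred 554 bp before its start site at chr2:32645941-32646141. The control held 1 tag, for a ratio of 73.4 (12.8 to 2932) as counted and 24.5 with the floor. Another, of 43.6 (35 to 53.7), lay 8416 bp outside Eng and inside the neighbouring gene Fpgs. Tek, which encodes the angiopoietin receptor TIE2, held its promoter peak of 9.31 (5.61 to 14.5), centred 57 bp before the start site, and one of 19.1 (13.6 to 26.1) 7020 bp after it. The promoter peak rests on 19 tags against 1 control tag, for a ratio of 16 (2.55 to 666) as counted and 5.34 with the floor. Kdr, the VEGF receptor 2 gene, had peaks of 14.2 (9.52 to 20.4) and 8.82 (5.23 to 13.9).

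**Figure D3:**
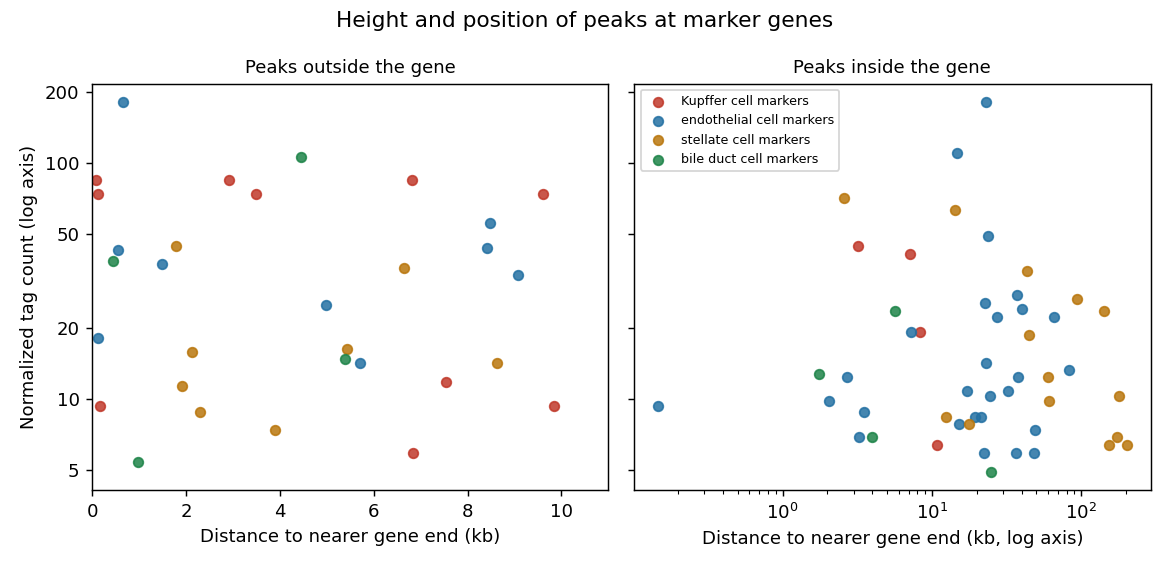
Normalized tag count (vertical axis, log) against the distance to the nearer gene end in kb, for peaks outside (left, linear axis) and inside (right, log axis) the markers, coloured by cell type. Peaks shared by C1q genes appear once per gene. Of the 9 peaks within 1 kb of an end the tallest, of 180.3, belongs to Cdh5, and the tallest peak inside a gene, of 180.8 in Vwf, lies 23086 bp from an end.

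Matrix genes of stellate cells were unlike one another. Col1a1 and Col1a2 encode the chains of type I collagen. Col1a1 held 1 peak of 70.6 (59.5 to 83.1), 2579 bp inside its upper-coordinate end at chr11:94950363-94950563, with 3 control tags and a ratio of 40.5 (13.6 to 199). Col1a2 had 3 peaks, all outside the gene, from 8.82 to 16.2 (11.1 to 22.7), and the interval of the highest lay below that of Col1a1. Col3a1, the type III collagen gene, held 1 peak of 7.84 (4.48 to 12.7). The proteoglycan genes Dcn and Lum, neighbours on chromosome 10, had no listed peak, and the nearest lay 58234 bp and 103878 bp away. The large glycoprotein gene Reln, at 460 kb the longest of the markers, held 12 peaks, all inside and over 10 kb from its ends. Its tallest, of 63.2 (52.8 to 75.1) at chr5:22330285-22330485, was 14320 bp after the start site. The control held 0 tags, and with the floor the ratio was 36.3 (exact lower limit 29.1). The other 11 ran from 6.37 to 34.8.

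Of the other stellate markers, Acta2, Pdgfrb and Des had a peak and Lrat had none. Acta2, which encodes smooth muscle actin of activated cells, had 1 peak of 44.6 (35.9 to 54.8), centred 2007 bp before its start site at chr19:34257280-34257480. The control held 0 tags, and with the floor the ratio was 25.6 (exact lower limit 20.4). Pdgfrb, a receptor gene for platelet-derived growth factor, had peaks of 35.8 (28 to 45) and 15.7 (10.7 to 22.1), both beyond its upper-coordinate end on the side of Csf1r. Des, the desmin gene, had 11.3 (7.14 to 16.9) and 7.35 (4.11 to 12.1). Lrat, whose enzyme makes the retinyl esters that stellate cells store, had none, and the nearest, of 9.31, was 59023 bp away. Within 1 kb of a gene end, 0 of the 10 stellate markers had a peak, against 24.5% of all genes.

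Among bile duct markers the transcription factor and secreted protein genes stood highest. Sox9, a factor of duct cells and their precursors, had 1 peak of 105.8 (92.2 to 121), 4447 bp beyond its upper-coordinate end at chr11:112792104-112792304. It held 216 tags against 4 control tags, a ratio of 45.6 (17.5 to 169). Spp1, which encodes osteopontin, had 3 peaks. Its highest, of 38.2 (30.2 to 47.7), was centred 449 bp before a start site at chr5:104434562-104434762. The control held 0 tags, and with the floor the ratio was 21.9 (exact lower limit 17.4). The others, inside and beyond the gene, were 12.7 and 14.7. Aqp1, a water channel gene, held 1 peak of 23.5 (17.3 to 31.2) at chr6:55341835-55342035, with 2 control tags and a ratio of 20.2 (5.31 to 172) as counted and 13.5 with the floor. Cftr, the chloride channel gene, spans 152 kb and had 3 low peaks, from 4.9 to 6.86 (3.75 to 11.5), on 10 to 14 tags each. The epithelial genes Krt7, Krt19 and Epcam, which encode keratins and an adhesion protein, had none. Their nearest peaks, of 5.88, 7.84 and 10.8, lay 15748 bp, 12561 bp and 18379 bp away.

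Together the markers accounted for 75 distinct peaks of ordinary height. The median height was a normalized tag count of 14.2 (quartiles 8.57 and 34), against 12.3 (7.84 and 23.5) for all 68763 peaks. The control held 0 tags in 35 of them (46.7%), against 44.4% of all peaks, and at most 5. Of the 75 peaks, 49 lay inside a marker and 26 only outside. Within 1 kb of a gene end lay 9, and 36 lay inside and over 10 kb from an end. No peak was shared between cell types. At 62 of them no other protein-coding gene, markers included, was within 10 kb.

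Long genes held many of these peaks. The 5 longest markers, Reln, Stab2, Cftr, Tek and Vwf, held 34 of the 75 peaks (45.3%). They also made up much of the DNA searched. Their lengths without flanks came to 1049 kb, and all 37 markers with flanks covered 2555 kb, each stretch counted once. Counted as pairs of peak and gene, so that a shared peak counts once per gene, the 37 markers had 3.09 per 100 kb of gene and flanks, against 3.47 over all genes. These pairs came to 4.1 for endothelial, 2.88 for Kupffer, 2.52 for stellate and 2.28 for bile duct markers. With each peak and each stretch of DNA counted once, a count added after the data were seen, the markers had 2.94 distinct peaks per 100 kb, against 3.29 over all genes. Kupffer markers then had 1.99, below the bile duct markers, whereas the other 3 cell types kept their values. All 7 markers of 50 kb or more had a peak, as did 95.5% of all genes of that length. Between 10 and 50 kb the count was 14 of 21, against 80.8%, and under 10 kb 6 of 9, against 54.2%. Endothelial markers were the longest, with a median of 44.6 kb against 17.2 kb over all genes, so length moves with their count of 10 of 10; its part was not tested.

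**Figure D4:**
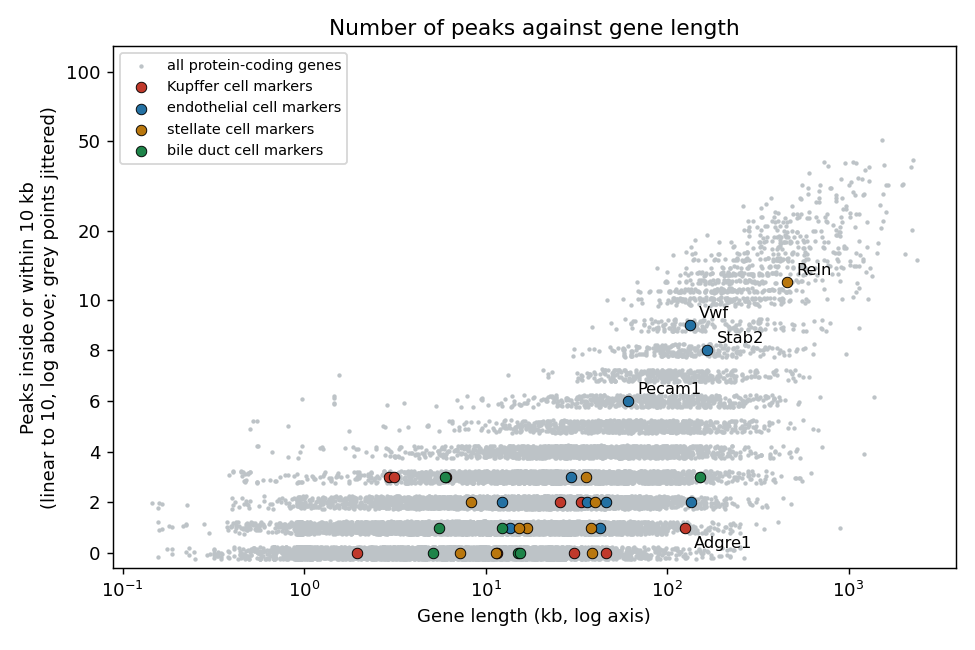
Number of peaks inside or within 10 kb (vertical axis, linear to 10 and log above) against gene length in kb (log axis) for all protein-coding genes (grey, jittered) and the 37 markers (coloured by cell type). Reln, with 12 peaks, Vwf, with 9, and Stab2, with 8, are among the longest markers, while Adgre1 has 1 peak at 125 kb.

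Further genes of the same cell types included some with taller peaks than any marker. As background, 74.5% of all protein-coding genes had a peak, and the median highest tag count over all of them was 13.7. The lists below were not tested against it. Of 20 other Kupffer cell and macrophage genes, 18 had a peak, with a median highest tag count of 36.5. Cd163 and Tlr4 had none, and the tallest were inside Spic, a transcription factor gene of red pulp and liver macrophages, at 87.2 (74.9 to 101), and the protease gene Ctsc at 84.3 (72.2 to 97.9). Of 20 further endothelial genes, 16 had one, and their median was 23.1. The mannose receptor gene Mrc1 held one of 380.3 (354 to 408), 786 bp inside an end at chr2:14230100-14230300, with 1 control tag. A peak of 275.9 (254 to 300) lay 9996 bp outside the Fc receptor gene Fcgr2b, so just within the window. Of 20 further stellate and fibroblast genes, 16 had a peak, and their median was 12. Vim, the vimentin gene, held one of 170.5 (153 to 189), 445 bp inside an end, and one of 319.5 (295 to 345) lay 8232 bp outside the nerve growth factor receptor gene Ngfr. Of 20 further bile duct genes, 17 had one, with a median of 19.4. Pkhd1, the fibrocystin gene, held 15 peaks up to 289.1 (266 to 313), and Krt8, a keratin that hepatocytes also make, one of 128.9 (114 to 145).

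Genes listed as ligands and receptors of signalling between these cells had the following values. Which liver cells make each product was not measured here. Of 20 ligand genes, 15 (75%) had a peak, with a median highest tag count of 17.4. Of 20 receptor genes, 17 (85%) had one, with a median of 24.1. Over all protein-coding genes, the share was 74.5% and the median 13.7. Among ligands the highest peaks belonged to Pdgfb, whose product acts on stellate cells, at 348.9 (324 to 376) and 9475 bp outside the gene, and to Igf1 at 104.4 (90.8 to 119). The cytokine genes Tnf, Il6, Il1b and Ccl2, and the lymphatic growth factor gene Vegfc, had none. Among receptors the highest were Notch3 at 266.6 (245 to 290), 3119 bp outside the gene, and Fgfr2 at 153.9 (137 to 172), inside the gene.

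Hepatocyte genes served as a comparison. Of 20, 18 had a peak, with a median highest tag count of 34 and 6.73 pairs of peak and gene per 100 kb, against 3.09 for the markers. Hepatocyte genes were shorter, with a median of 10.6 kb against 25.6 kb. The 9 markers under 10 kb, the C1q genes among them, had 6.63 pairs per 100 kb, against 3.74 for all genes of that length. In this 6.63, peaks that the C1q genes share count once per gene. Over genes of every length the value was 3.47, and the part of length in these densities was not tested. Among hepatocyte genes the tallest peak, of 126.4 (111 to 143), lay inside Alb. The next, of 106.3 (92.7 to 121), lay 9413 bp outside Tat, so just within the window. Both were below the tallest peaks of Cdh5 and Vwf. A peak within 1 kb of an end was found for 10 of these 20 genes and for 8 of the 37 markers, against 24.5% of all genes. Lymphoid and granulocyte genes had a peak in 14 of 20, with a median of 8.57. Portal fibroblast and mesothelial genes had one in 6 of 10 and 1.59 pairs per 100 kb. Genes of neurons and photoreceptors, which the liver lacks, had one in 16 of 20, with a median of 9.31 and 3.09 pairs per 100 kb. Over all protein-coding genes, 74.5% had a peak, with a median of 13.7 and 3.47 pairs per 100 kb. These lists were not tested against one another.

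**Figure D5:**
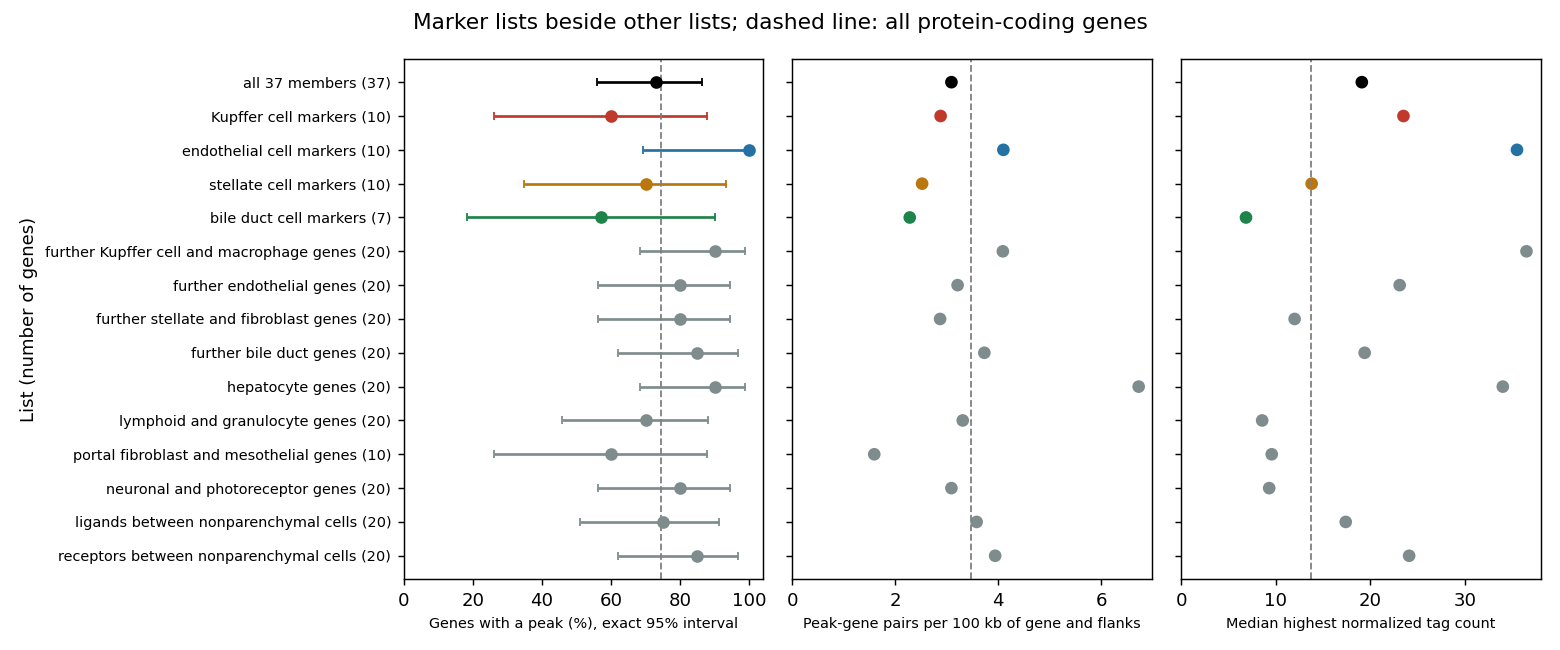
Share of genes with a peak (left, with exact 95% intervals), pairs of peak and gene per 100 kb of gene and flanks (middle) and median highest normalized tag count (right) for the 37 markers, their 4 cell types and 10 other lists. Dashed lines are all protein-coding genes (74.5%, 3.47 and 13.7). Hepatocyte genes have the highest density, 6.73, and bile duct markers the lowest median height, 6.86.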

How the data were processed

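ChIP-seq was done on 4 mouse liver libraries, 2 BLRP-MafG and 2 BLRP control. The submitters' processing notes name Bowtie2, HOMER and mm10 (tool versions: not given in the sources used here). HOMER findPeaks, per the file headers, called peaks of 200 bp on 1 MafG tag collection over 1 control collection, with a tag threshold of 11 at its false discovery rate, requiring 10 times the control (Poisson p of 1e-06) and 4 times the surrounding 10 kb. Whether libraries of a group were pooled was not given in the sources used here.

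The signal used is the normalized tag count, which the authors scaled to 10000000 tags. Control signal is unscaled in the deposited list, with 0.5 for 0 tags. The deposited fold over control, a linear ratio, served as a threshold and to derive the control depth. The deposited p-values and peak score were not used further, nor were 2 other value columns. Depth was 20406492 BLRP-MafG tags per the file headers and an implied 1.72e+07 control tags. Normalized tag counts multiplied back came within 0.11 of whole tags, with as few as 9 tags in a listed peak. How the caller's threshold of 11 relates to this count was not given in the sources used here. The whole tags gave exact 95% Poisson intervals and exact conditional binomial intervals of ratios. Where the control held under 3 tags, the ratio was also computed with the control set to a floor of 3; with 0 tags, only that ratio is given. These intervals cover counting error only. Shares of genes carry exact 95% binomial intervals over the genes of a list.

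Peaks were assigned by midpoint to 21887 RefSeq protein-coding genes on 21 chromosomes with Python 3.11.15, pandas 2.3.3 and scipy 1.17.1, and the assignment was tested on simulated data. Distances are to the nearer gene end, or to a start site where the RefSeq promoter table gives one. All 226 genes of 14 lists were found by symbol. Every marker is named; full values are given for the 3 with the highest peak per cell type, and for further markers described after their values were seen. The members and lists were chosen with earlier results of these data known. No list was tested, and alternatives were the window, the fold over control, the overlap and the nearest gene.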

Additional observations from a re-analysis of the deposited data

How the results depend on the processing

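Of 79 values recomputed under another setting, 58 stayed within 1.5 times the reported count, or within the counting interval of a median, and 21 moved. No paired analysis was possible because the deposited list holds no value per library, and for the same reason leaving out a replicate was not run. With a window of 1 kb, the median highest tag count was 7.84 for all markers, 0 for Kupffer, 23.2 for endothelial, 0 for stellate and 0 for bile duct markers, and stellate markers had 3 genes with a peak and 14 distinct peaks. Over all genes this window gave a median of 7.84 as well. A window of 50 kb gave 93.5% of all genes a peak. Distinct peaks then numbered 173 for all markers, 30 for Kupffer, 74 for endothelial, 41 for stellate and 32 for bile duct markers. The median was then 32.3 for all markers (33.8 over all genes), 84.8 for Kupffer, 21.4 for stellate and 23.5 for bile duct markers. The Kupffer value equals the height of the highest C1q peak, which the C1q genes share. All 7 bile duct markers then had a peak. With a fold over control of at least 20, bile duct markers had 5 distinct peaks. With each peak given only to its nearest gene, the median was 8.84 for Kupffer and 23.2 for endothelial markers, against 10.3 over all genes. With the C1q genes counted as 1 locus, a setting chosen after seeing the data, the Kupffer median was 2.94. The fewer or additional peaks that each window admits are part of its construction. At a depth of 20406492 tags the lowest listed peak held 9 tags by its normalized tag count. Signal at the 10 markers without a peak may have been too weak to be listed. It may also have failed the required fold over control or surroundings.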
